A study of Mus musculus with 4 samples.

Results

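The microRNAs (miRNAs) described here belong to the distal cluster of the imprinted Dlk1-Dio3 region on mouse chromosome 12, also called the miR-379/410 or Mirg cluster. Members were chosen by a pattern of names from the deposited miRNA table, and 58 of its 982 entries matched. They are mature arms of 35 hairpins, of which 23 had both arms listed and 12 had 1 arm. A miRNA hairpin gives a 5p arm and a 3p arm, and usually 1 of them is kept as the active strand.

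The data came from interstitial cells of Cajal (ICC), which pace the contractions of gut smooth muscle and carry the receptor tyrosine kinase Kit. Cells positive for copGFP, a fluorescent reporter in 1 of the Kit alleles, were sorted from dissociated whole jejunum or colon. Leptin-deficient Lepob/ob;KitcopGFP/+ mice, named diabetic in the labels, were set against Lepob/+;KitcopGFP/+ mice, which the labels call both healthy and wild type although they carry 1 copy of the ob mutation. All were C57BL/6 mice aged 11 to 20 weeks, and all carried the KitcopGFP/+ reporter. There were 4 libraries, ob/ob jejunum, ob/+ jejunum, ob/ob colon and ob/+ colon, and each was made from pooled material (15 each, per the labels). A ratio within a tissue therefore has no replicate check, and a test over both tissues treats the tissues as the repeat of a genotype. Other Kit-positive cells of the gut wall, such as mast cells, can enter a gate of this kind. The table holds miRNAs only, so the sort was not checked here against Kit or other ICC transcripts.

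Genes of this cluster lie one after the other and are made from transcripts of the maternally inherited chromosome, together with the long non-coding RNAs Meg3, Rian and Mirg. Their miRNAs are abundant in the embryo, the placenta and the brain, and in the mouse the cluster has been tied to the metabolic adaptation of newborns and to neuronal function. A miRNA binds target mRNAs mainly through its seed, bases 2 to 8 from the 5′ end, so miRNAs with the same seed are expected to share targets.

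Mature sequences from RefSeq (GRCm38.p6, plus strand) were matched for 55 of the 58 members. The sequences below are those of the most abundant members and of the member that passed the genotype test with its closest relative. They are written 5′ to 3′, with the seed in capitals.
miR-541-5p: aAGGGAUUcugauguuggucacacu
miR-409-5p: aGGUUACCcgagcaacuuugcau
miR-409-3p: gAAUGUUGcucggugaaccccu
miR-382-5p: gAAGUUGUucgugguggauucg
miR-329-3p: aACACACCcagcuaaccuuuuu
miR-543-3p: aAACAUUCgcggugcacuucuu
miR-379-5p: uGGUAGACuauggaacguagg
miR-411-5p: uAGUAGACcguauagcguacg
miR-379-3p: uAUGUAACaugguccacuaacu
miR-411-3p: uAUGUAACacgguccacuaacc
The 55 sequences held 52 different seeds. Shared seeds were AUGUAAC in miR-379-3p and miR-411-3p, GGUAGAC in miR-379-5p and miR-1193-5p, and GGUUGUC in miR-410-5p and miR-494-5p. From the 5′ end, miR-379-3p and miR-411-3p differ at 2 positions, U10C and U22C, whereas the 5p arms of the same hairpins differ at 7. They were also the 2 members with fractional counts, which they had in the colon libraries, so how reads were divided between these near-identical arms is uncertain. The letters GGUNGAC (N for any base, read on the RNA strand only) occurred in 8 of the 55 members, or 14.5%, and in 13 of 1679 mature mouse miRNAs in the same table, or 0.774%. Of those 13, 9 come from genes of the cluster. The stretch was picked as one that members share, so its higher share among them is a description and no test.

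RefSeq lists 38 miRNA genes from Mir379 to Mir410, and 35 of them have a member. The last 9, from Mir453 to Mir410 and with Mir541 and Mir409 among them, lie inside Mirg, and 8 of these have a member. Mir379, Mir411 and Mir329 lie before it.

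The libraries held 433192 miRNA counts in ob/ob jejunum and 466329 in ob/+ jejunum, and 267076 in ob/ob colon and 716473 in ob/+ colon. A single count equalled 2.37, 2.28, 3.15 and 1.52 CPM in the same order, where CPM is the count normalised to a common scaled miRNA total. Intervals given for counts, ratios and shares are exact 95% binomial intervals. They take in counting error and nothing else, and the labels mention no molecular identifiers that would mark PCR copies. An entry was tested when its mean over the libraries was at least 10 CPM, which 322 entries and 30 of the 58 members met. The other 28 members had at most 10 counts in any library and together made up 20 counts in ob/ob jejunum, 34 in ob/+ jejunum, 19 in ob/ob colon and 62 in ob/+ colon.

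Among the members 1 stood far above the others. miR-541-5p, studied in rat neuron-like cells as a repressor of the synaptic vesicle protein synapsin I, averaged 4118 CPM and was 27th by mean level of all 982 entries. The next member, miR-409-5p, averaged 328 CPM, 12.5 times less. miR-541-5p was also close to the only arm of its hairpin in these counts, with 1 count of miR-541-3p in each ob/+ library and 0 in each ob/ob library. miR-382-5p averaged 310 CPM, miR-379-5p 153 and miR-409-3p 102, and the other 25 tested members averaged between 11.3 and 93.5 CPM. The order of neighbours from miR-409-3p downwards rests on fewer than 100 counts in each library.

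**Figure D1:**
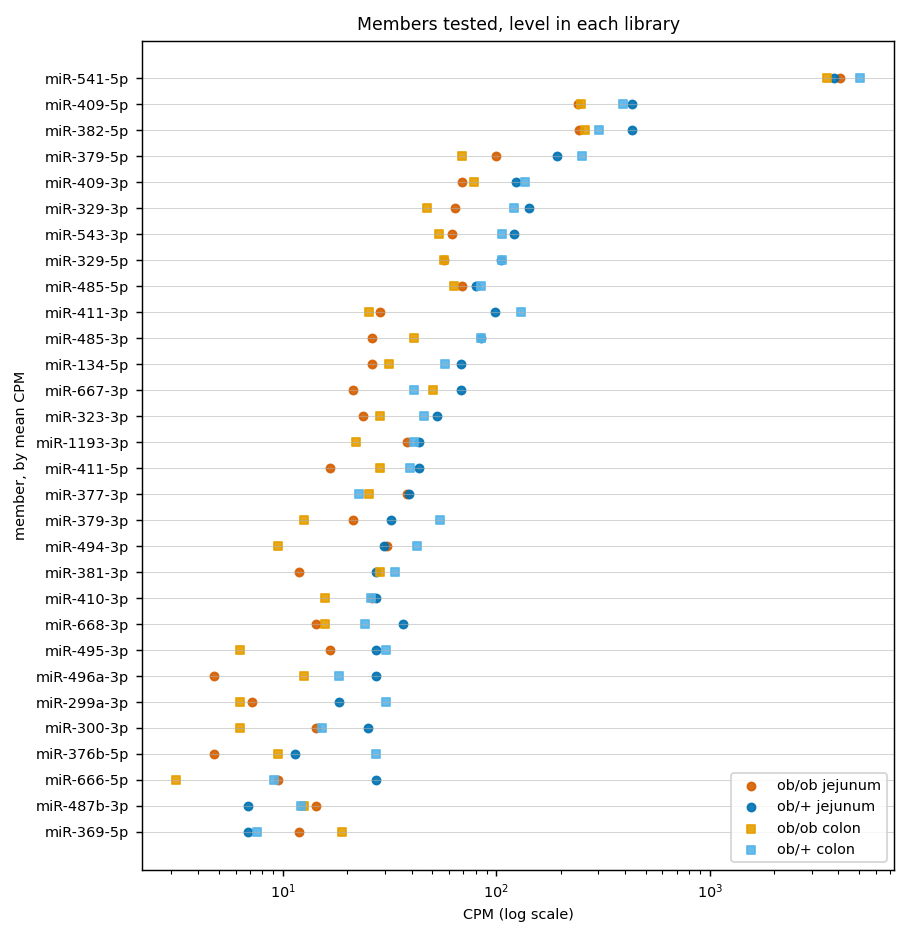
Level of each of the 30 tested members in the 4 libraries, in CPM on a log axis, ordered by mean level. miR-541-5p stood between 3549 and 5065 CPM in every library. For 21 members both ob/ob points lay left of both ob/+ points, where 37.0% of all 322 entries had both ob/ob libraries lower.

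The summed members made up 0.527% of the miRNA counts in ob/ob jejunum (0.506 to 0.549), against 0.593% in ob/+ jejunum (0.571 to 0.615). In colon the share was 0.582% in ob/ob (0.554 to 0.612), against 0.685% in ob/+ (0.666 to 0.705). After scaling, the log2 ratio of ob/ob over ob/+ for the sum in jejunum was -0.22 (-0.30 to -0.14), and in colon it was -0.61 (-0.69 to -0.52). These sums mostly follow miR-541-5p, and leaving it out changed the picture.

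miR-541-5p itself had 1711 counts in ob/ob jejunum against 1665 in ob/+ jejunum, or 4059 against 3799 CPM. In colon it had 1127 counts in ob/ob against 3337 in ob/+, or 3549 against 5065 CPM. Its log2 ratio of 0.10 in jejunum had an interval that took in 0 (-0.0026 to 0.19), and that in colon was -0.51 (-0.61 to -0.42). Both moved with the scaling: the jejunum ratio was 0.15 (0.047 to 0.24) with library totals, -0.025 (-0.12 to 0.074) with the authors' factors and -0.72 (-0.82 to -0.63) by mappable reads. The colon ratio stayed below 0 under each scaling, between -1.45 by mappable reads and -0.14 with library totals. By CPM the 2 ob/ob levels lay around the ob/+ jejunum level, so the genotypes overlapped. Over both tissues miR-541-5p did not pass (log2 change -0.21 ± 0.22 SE, edgeR quasi-likelihood test, adjusted p = 0.532). With mappable reads as library size it passed (-1.09, adjusted p = 0.000262), and over all alternatives run the adjusted p lay between 0.000262 and 0.9999.

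The 57 other members together had 573 counts in ob/ob jejunum against 1098 in ob/+ jejunum, or 1359 against 2505 CPM. In colon they had 428 counts in ob/ob against 1573 in ob/+, or 1348 against 2387 CPM. Their log2 ratio of ob/ob over ob/+ in jejunum was -0.88 (-1.03 to -0.73), and in colon it was -0.82 (-0.98 to -0.67). With library totals alone the colon value was -0.45 (-0.61 to -0.30), and scaled to mappable reads the values were -1.70 in jejunum and -1.76 in colon. A share within the cluster needs no scaling between libraries: miR-541-5p took 74.9% of the cluster's counts in ob/ob jejunum (73.1 to 76.7), against 60.3% in ob/+ jejunum (58.4 to 62.1). In colon it took 72.5% in ob/ob (70.2 to 74.7), against 68.0% in ob/+ (66.6 to 69.3). This split was chosen after the values were seen. In pooled cells of this kind, fewer cells of a type and less RNA per cell cannot be told apart.

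**Figure D2:**
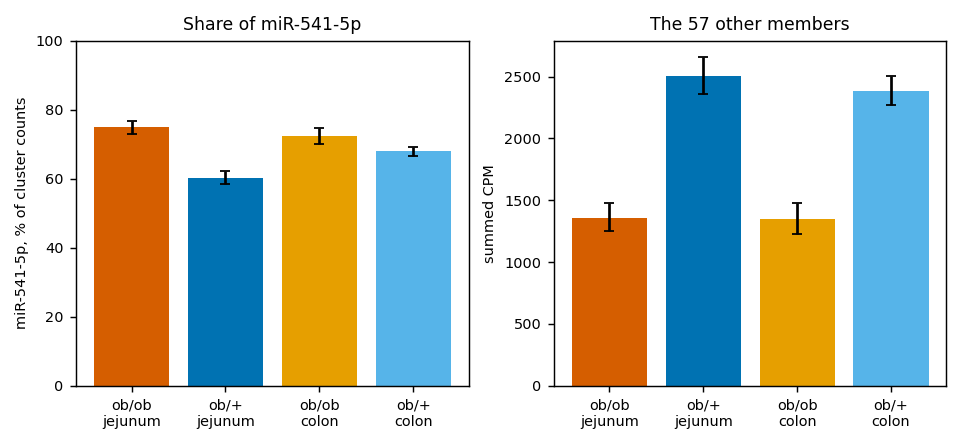
Left, miR-541-5p as a percentage of all cluster counts in each library. Right, summed CPM of the 57 other members. Bars are single libraries and error bars exact 95% binomial intervals for counting error. The share of miR-541-5p was 74.9% and 72.5% in ob/ob jejunum and colon, against 60.3% and 68.0% in ob/+. The other members summed to 1359 and 1348 CPM in ob/ob, against 2505 and 2387 CPM in ob/+.

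Member by member, lower levels in ob/ob cells were common. The median log2 ratio of ob/ob over ob/+ over the 30 tested members was -0.83 in jejunum, where that of all 322 entries was 0.02, and -0.77 in colon, where it was -0.21. In jejunum 26 of the 30 members lay below 0, where 158 of all 322 entries did. Of the members 10 were at least 2-fold lower and 0 at least 2-fold higher. Over all entries 18.0% were at least 2-fold lower and 14.6% at least 2-fold higher. In colon 26 members again lay below 0, where 181 of all 322 entries did. There 8 members were at least 2-fold lower and 0 higher, where 17.4% of all entries were lower and 17.1% higher. With library totals, median-of-ratios factors or the authors' factors, 1 member was at least 2-fold higher in colon. Scaled to mappable reads, 22 members in jejunum and 26 in colon were at least 2-fold lower, as the median of all entries then also shifted by -0.78 and -0.86. The counting interval lay wholly below 0 for 14 members in jejunum and for 13 in colon, and wholly above 0 for 0 in either tissue. The same count was not made over all entries, so these numbers have no background to be set against. In 24 members the ratio was below 0 in both tissues (80.0%, against 41.9% of all entries), but only 2 were at least 2-fold lower in both (6.67%, against 10.9%). For 21 members both ob/ob libraries lay below both ob/+ libraries, where 37.0% of all entries did. Among them, miR-299a-3p and miR-376b-5p were under 10 CPM in both ob/ob libraries and passed the filter through their ob/+ levels. For such members the filter itself favours the direction seen. For 2 members both lay above, where 32.9% of all entries did.

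Those 2 members were miR-369-5p and miR-487b-3p, at 3 to 8 counts in every library. miR-369-5p had 5 and 6 counts in ob/ob jejunum and colon and 3 and 5 in ob/+, and miR-487b-3p had 6 and 4 in ob/ob, against 3 and 8 in ob/+. Counts this low do not fix a direction for either.

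**Figure D3:**
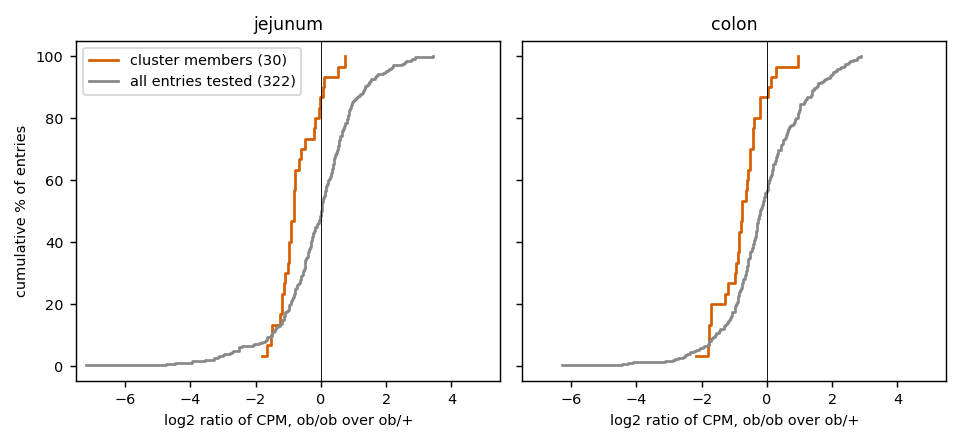
Cumulative percentage of entries by their log2 ratio of CPM (ob/ob over ob/+), for the 30 tested members and for all 322 entries, in jejunum and colon. The members' medians lay at -0.83 and -0.77, against 0.02 and -0.21 for all entries.

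Over both tissues 1 of the 30 members fell and 0 rose (edgeR quasi-likelihood model with a tissue term). Of all entries 10.2% fell and 7.76% rose, so the share of members called was not above the background. At an unadjusted p under 0.05 there were 10 members, all lower, where 20.2% of all entries were lower and 20.2% higher. The members' median log2 change was -0.90, against -0.12 over all entries, and standard errors (back-calculated from the F statistic) ran between 0.22 and 0.69.

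The member that fell was miR-411-3p, the 3p arm of the second hairpin of the cluster. It had 12 counts in ob/ob jejunum against 43 in ob/+ jejunum, and 8.5 in ob/ob colon against 86.5 in ob/+ colon. In CPM it stood at 28.5 and 25.2 in ob/ob jejunum and colon and 98.1 and 130.5 in ob/+. Both ob/ob libraries thus lay below both ob/+ libraries, as for 37.0% of all entries. The log2 ratio in jejunum was -1.64 (-2.84 to -0.84), and in colon it was -2.19 (-3.63 to -1.33), and the log2 change over both tissues was -2.05 ± 0.37 SE (adjusted p = 0.0310). Without the ob/ob jejunum library the call was lost (-2.18, adjusted p = 0.141), and likewise without the ob/ob colon library (-1.87, adjusted p = 0.121). With no filter on abundance it was lost too (-2.05, adjusted p = 0.118), and over all alternatives run the adjusted p lay between 6.38e-08 and 0.141.

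miR-379-3p, which shares its seed and most of its bases, had 9 counts in ob/ob jejunum against 14 in ob/+ jejunum, and 4.5 in ob/ob colon against 35.5 in ob/+ colon. It did not pass (log2 change -1.28 ± 0.53, edgeR adjusted p = 0.143). A sum over both miRNAs, chosen after the data were seen, removes the question of how reads were divided, apart from rounding. It held 21 counts in ob/ob jejunum against 57 in ob/+ jejunum, with a log2 ratio of -1.38 (-2.18 to -0.64). In colon the sum was 12 in ob/ob against 122 in ob/+, with a log2 ratio of -2.29 (-3.28 to -1.44). Each count was rounded before summing, so 4.5 and 8.5 counts in ob/ob colon gave 12, slightly below their unrounded sum. The opposite arms behaved less evenly. miR-411-5p had 7 and 9 counts in ob/ob jejunum and colon, against 19 and 26 in ob/+, with log2 ratios of -1.19 (-2.88 to -0.07) and -0.42 (-1.76 to 0.66).

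miR-379-5p, from the first hairpin of the cluster and the fourth most abundant member, had 42 counts in ob/ob jejunum against 84 in ob/+ jejunum, and 22 in ob/ob colon against 165 in ob/+ colon. Levels were 99.6 and 69.3 CPM in ob/ob jejunum and colon and 192 and 250.4 CPM in ob/+. Its ob/ob levels both lay below its ob/+ levels, as for 37.0% of all entries. Its log2 change of -1.37 ± 0.35 missed the threshold in edgeR's test (adjusted p = 0.0553, range over the alternatives 1.16e-07 to 0.209).

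Both arms of miR-409 were among the 5 most abundant members. miR-409-5p had 102 counts in ob/ob jejunum against 189 in ob/+ jejunum, and 79 in ob/ob colon against 258 in ob/+ colon. Its opposite arm miR-409-3p, which represses angiogenin in human tumour cells, had 29 counts in ob/ob jejunum against 54 in ob/+ jejunum, and 25 in ob/ob colon against 90 in ob/+ colon. The log2 changes of the 2 arms were -0.74 ± 0.24 and -0.82 ± 0.30 and did not pass (edgeR adjusted p = 0.0965 and 0.113). For each arm both ob/ob levels lay below both ob/+ levels, as for 37.0% of all entries. miR-382-5p had 103 counts in ob/ob jejunum against 190 in ob/+ jejunum, and 83 in ob/ob colon against 199 in ob/+ colon. Its log2 ratio in jejunum was -0.82 (-1.19 to -0.47), and in colon it was -0.21 (-0.60 to 0.17), so the colon interval took in 0 and the jejunum interval did not. Whether the 2 tissues differ in this was not tested, since each ratio rests on a single pair of libraries.

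miR-329-3p, named with miR-134 among the miRNAs of this cluster that act in the dendrites of rat neurons, had 27 counts in ob/ob jejunum against 62 in ob/+ jejunum. In colon it had 15 in ob/ob against 80 in ob/+, and the log2 change was -1.24 ± 0.31 (edgeR adjusted p = 0.0553, range over the alternatives 9.37e-06 to 0.238). miR-329-5p had 24 and 18 counts in ob/ob jejunum and colon, against 46 and 70 in ob/+. miR-543-3p had 26 and 17 in ob/ob, against 53 and 70 in ob/+. For all 3 both ob/ob levels lay below both ob/+ levels, as for 37.0% of all entries.

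miR-134-5p, which limits the growth of dendritic spines in rat neurons, had 11 and 10 counts in ob/ob jejunum and colon, against 30 and 38 in ob/+. Its log2 ratios were -1.26 (-2.54 to -0.35) and -0.79 (-2.04 to 0.16). miR-485, which limits synapse number in rat neurons, gave counts from both arms. Its 3p arm had 11 and 13 counts in ob/ob jejunum and colon, against 37 and 56 in ob/+, with a log2 change of -1.35 ± 0.38 (edgeR adjusted p = 0.0698, range over the alternatives 4.71e-05 to 0.254). The 5p arm had 29 and 20 counts in ob/ob, against 35 and 56 in ob/+, with a log2 change of -0.32 ± 0.32 (adjusted p = 0.499). Counts of the 2 arms come from the same hairpin, but the difference between them was not tested.

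Of the remaining members named by level, miR-323-3p had 10 and 9 counts in ob/ob jejunum and colon and 23 and 30 in ob/+, and miR-1193-3p had 16 and 7 in ob/ob, against 19 and 27 in ob/+. miR-381-3p, another of the cluster's miRNAs studied in rat dendrites, had 5 and 9 in ob/ob, against 12 and 22 in ob/+. miR-494-3p had 13 counts in each jejunum library and 3 in ob/ob colon, against 28 in ob/+ colon. In miR-494-3p the genotypes were thus level in jejunum (log2 ratio 0.05, -1.17 to 1.28) and apart in colon (-1.76, -4.53 to -0.47), a difference between tissues that was not tested. miR-667-3p had the other pattern, with 9 counts in ob/ob jejunum against 30 in ob/+ jejunum and 16 in ob/ob colon against 27 in ob/+ colon. Its log2 ratio in jejunum was -1.50 (-2.94 to -0.57), and in colon it was 0.27 (-0.69 to 1.24), and over both tissues the log2 change was -0.63 ± 0.57. miR-377-3p, described in mesangial cells of the kidney as raising fibronectin, stood at 16 and 8 counts in ob/ob, against 17 and 15 in ob/+, with a log2 change of 0.04 ± 0.39. None of these 6 passed (edgeR adjusted p between 0.150 and 0.943).

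The other 10 tested members had between 1 and 20 counts in a library, and their log2 changes ran from -1.77 for miR-299a-3p to 1.07 for miR-369-5p, with 0 past the threshold. Both of these reached a mean of 10 CPM only through their higher genotype.

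**Figure D4:**
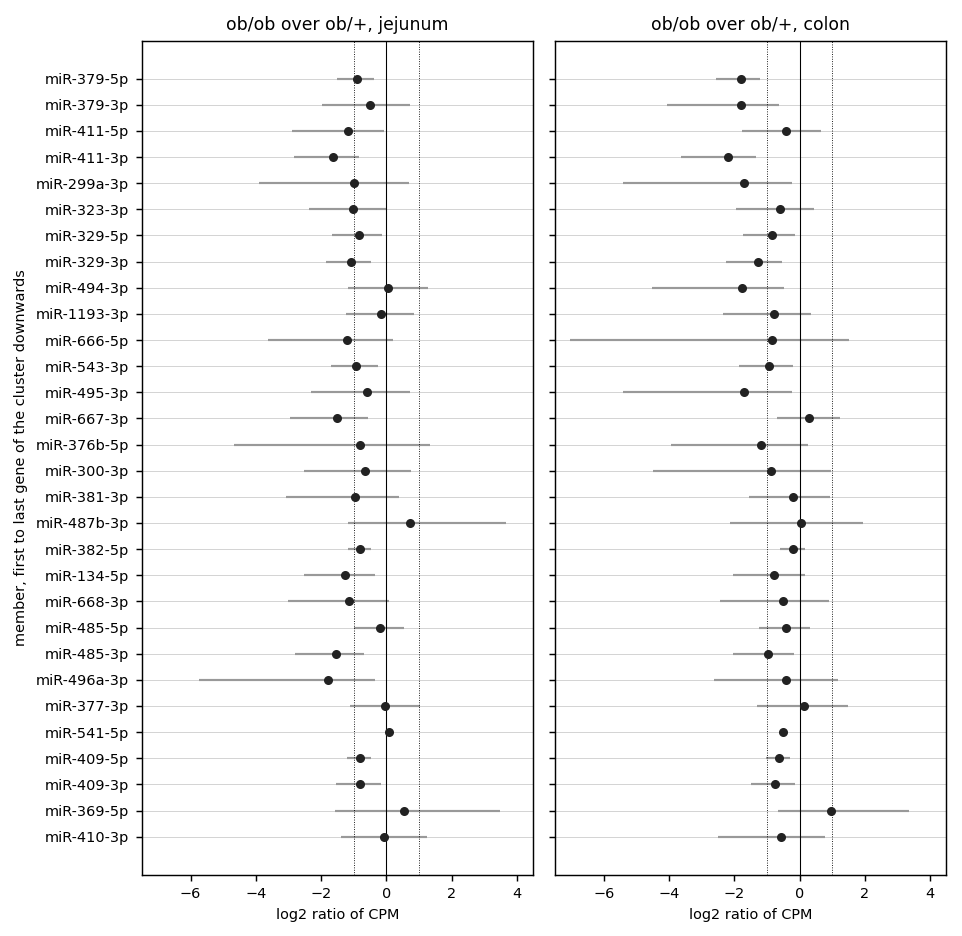
Log2 ratio of CPM, ob/ob over ob/+, for the 30 tested members in jejunum and colon, in the order of their genes from Mir379 to Mir410. Points use a prior count of 2, lines are exact 95% counting intervals and dotted lines mark 2-fold. Most points lay below 0, with miR-411-3p at -1.64 and -2.19 and miR-541-5p at 0.10 and -0.51, the first of which was below 0 with the authors' factors and by mappable reads.

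By place in the cluster, the 23 tested members encoded before Mirg had a median log2 ratio of -0.92 in jejunum and -0.86 in colon, and 9 and 8 of them were at least 2-fold lower in ob/ob. The 7 encoded inside Mirg, miR-541-5p and the miR-409 arms among them, had medians of -0.06 and -0.51, with 1 and 0 at least 2-fold lower. Over all entries the medians were 0.02 and -0.21, and 18.0% and 17.4% were at least 2-fold lower. Members of 1 hairpin or transcript share their source, and this split was made with the values known. The difference by place was not tested.

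Other miRNAs of the same imprinted region are encoded nearer to Dlk1. Of 25 arms listed for its proximal part, 10 were tested, 2 fell in edgeR's test and 0 rose. Of all entries 10.2% fell and 7.76% rose. In jejunum the median log2 ratio of the 10 tested proximal arms was -1.07, where that of all entries was 0.02. In colon it was -0.77, where that of all entries was -0.21. Summed, the proximal arms stood at 2667 and 2963 CPM in ob/ob jejunum and colon, against 5688 and 6124 CPM in ob/+.

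Summed levels of markers of other cell types also differed between the libraries. For the calls below, 10.2% of all entries fell and 7.76% rose in edgeR's genotype test. The fibroblast and mesenchyme list (miR-199a, miR-199b and miR-214, 5 arms) summed to 963 and 888 CPM in ob/ob jejunum and colon, against 4812 and 5001 CPM in ob/+, and all 4 of its tested arms fell. The epithelial list of 16 arms summed to 372 and 299 CPM in ob/ob, against 2122 and 921 CPM in ob/+, and 4 of its 6 tested arms fell. The smooth and striated muscle list of 8 arms stood at 349457 and 246827 CPM in ob/ob, against 252563 and 213894 CPM in ob/+, and 0 of its 6 tested arms passed. The leukocyte list (miR-342, miR-150 and miR-223, 5 arms) summed to 1371 and 1014 CPM in ob/ob, against 710 and 650 CPM in ob/+. Of its 4 tested arms 1 rose. Most of this sum was miR-342-3p, with log2 ratios of 1.02 in jejunum and 0.58 in colon, and miR-342-5p had 1.64 and 1.22. In jejunum miR-150-5p (-1.396) and miR-223-3p (-0.98) were lower in ob/ob, and in colon they were higher (0.45 and 1.197). miR-223-3p had at most 8 counts in a library. miR-142, also chosen as leukocyte, was missed by this sum because of how it is named. Its 5p arm had 22 and 17 counts in ob/ob jejunum and colon, against 11 and 17 in ob/+, with log2 ratios of 0.94 and 0.94. miR-142-3p had 1 and 0 counts in ob/ob, against 4 and 2 in ob/+. The neuronal and glial list of 10 arms stood at 498 and 501 CPM in ob/ob, against 493 and 471 CPM in ob/+, and 0 of its 6 tested arms passed in either direction. Its arms went both ways. In jejunum and colon the log2 ratios were -1.49 and -1.43 for miR-9-3p, -0.70 and -0.49 for miR-124-3p and 0.01 and -0.46 for miR-128-3p. For miR-9-5p they were 0.17 and 0.74, for miR-338-3p 0.86 and 1.02, and for miR-338-5p 0.47 and 0.03. The endothelial miR-126a arms summed to 441 and 523 CPM in ob/ob, against 616 and 469 CPM in ob/+. The 3 erythroid arms summed (of miR-451a and miR-144) were at 0 in both ob/ob libraries, against 36.5 and 18.2 CPM in ob/+. miR-486, also chosen as erythroid, was missed by this sum because of how it is named. Its 5p arm had 846 and 556 counts in ob/ob jejunum and colon, against 593 and 925 in ob/+. The log2 ratios of that arm were 0.57 and 0.32, and those of miR-486-3p were 1.06 and 0.04. The part of these shifts in the cluster's lower levels was not tested.

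No member passed the test between tissues. For colon over jejunum 0 of the 30 members passed in edgeR's test with genotype as a term, as did 0.00% of all entries in either direction. At an unadjusted p under 0.05 there was 1 member, miR-666-5p, lower in colon, where 4.04% of all entries were lower. DESeq2 and limma-voom also called 0 after adjustment, with 0 and 1 members at an unadjusted p under 0.05. The median log2 ratio of colon over jejunum was -0.11 in ob/ob and -0.03 in ob/+, against -0.09 and 0.05 over all entries. In ob/ob 1 member was at least 2-fold lower in colon and 2 were higher, where 2.80% and 4.97% of all entries were. In ob/+ there was 1 in each direction, where 8.07% and 3.73% of all entries were. miR-541-5p had a log2 ratio of -0.19 in ob/ob (-0.30 to -0.08), which turned to 0.095 (-0.014 to 0.20) with library totals and was -0.068 (-0.18 to 0.041) with the authors' factors. In ob/+ its ratio was 0.41 (0.33 to 0.50), and between 0.34 and 0.60 under the other scalings. The 57 other members together had ratios of -0.012 in ob/ob (-0.20 to 0.17) and -0.069 in ob/+ (-0.18 to 0.04). Both intervals took in 0, but with library totals the ob/ob value was 0.28 (0.093 to 0.46). The ob/+ value left 0 in both directions, at 0.12 (0.0078 to 0.23) by mappable reads, -0.13 (-0.24 to -0.015) with median-of-ratios factors and -0.14 (-0.26 to -0.032) with the authors' factors. miR-666-5p had 1 count in ob/ob colon and 6 in ob/+ colon, against 4 in ob/ob jejunum and 12 in ob/+ jejunum.

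The share of the 5p arm could be followed in 6 hairpins with at least 20 counts over both arms in every library. It ran between 99.9% and 100% for miR-541, 96.1% and 98.1% for miR-382, 82.1% and 85.7% for miR-379, and 74.1% and 77.9% for miR-409. In miR-329 the arms were nearly even, at 47.1% and 54.5% in ob/ob jejunum and colon, against 42.6% and 46.7% in ob/+. miR-485 varied most, with 29 of 40 counts from the 5p arm in ob/ob jejunum, or 72.5% (56.1 to 85.4), against 48.6% (36.7 to 60.7) in ob/+ jejunum. In colon its share was 60.6% in ob/ob (42.1 to 77.1), against 50.0% in ob/+ (40.4 to 59.6). In each of the 6 hairpins the intervals of all libraries overlapped, which is no test of a difference, and differences in arm share between libraries were not tested.

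**Figure D5:**
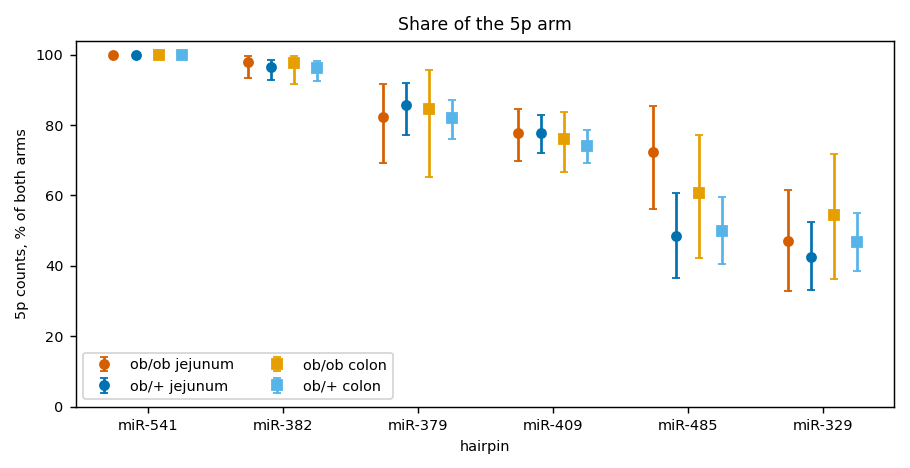
Percentage of a hairpin's counts from its 5p arm in each library, with exact 95% binomial intervals. miR-541 and miR-382 gave almost only their 5p arm, miR-329 both arms about evenly, and miR-485 ran between 48.6% and 72.5% with overlapping intervals.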

How the data were processed

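Small RNA was sequenced from 4 pooled libraries. Per the file headers, reads were trimmed of their 3′ adapters by the authors, those shorter than 15 nt were dropped, and mappable ones were assigned to miRBase 20 with mm9 as genome. No source used here gives the aligner, the counter or the scaling rule. The authors' raw values are estimated counts, of which 87.7% to 89.8% of those above 0 per library were whole (within 1e-06). They were rounded for all tests. The deposited normalized signal equals the raw counts times 1 factor per library (1.00 in ob/ob jejunum, 1.05 in ob/+ jejunum, 1.45 in ob/ob colon and 0.661 in ob/+ colon). The deposited statistics sheet holds other values, read numbers per step, and miRNA counts were 12.3% of mappable reads in ob/ob jejunum and 22.5% in ob/+ jejunum, 10.6% in ob/ob colon and 26.3% in ob/+ colon. Columns named SI were matched to jejunum.

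Counts were scaled with TMM factors (0.973, 0.940, 1.19 and 0.920 in the same order). The genotype and tissue effects were tested over all 322 entries in edgeR 4.0.16 with the other factor as a term, Benjamini-Hochberg adjustment and calls at 0.05, on 1 residual and 3.85 prior degrees of freedom. Ratios used a prior count of 2. The fit was tested on simulated data with 1 common spread for all entries. For genotype it called 9 of 24 changes of 2-fold, 13 of 15 of 4-fold and 24 of 25 of 8-fold, so most 2-fold changes were missed. Of unchanged entries it called 0 of 246 for genotype and 3 of 255 for tissue. DESeq2 1.42.0 and limma 3.58.1 were alternatives. P-values measure only the spread between these libraries. Members with counts in the text were the 20 with the highest mean CPM and any called, and others are given by range or as stated. The members, lists and tests were chosen with earlier results of these data known. Gene order and sequences come from GRCm38.p6, whose coordinates are not given since the files use mm9.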

Additional observations from a re-analysis of the deposited data

How the results depend on the processing

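With few counts per member and 1 residual degree of freedom, the number of members called moved with the setting. The 1 member that fell stood against 4 with median-of-ratios factors, 26 by mappable reads, 7 with the authors' factors, 0 with no abundance filter (11 at an unadjusted p under 0.05), 3 at a mean of at least 100 CPM, where miR-411-3p was not tested, 4 without hairpin-named entries and 5 with no tissue term. It was 1 with library totals, DESeq2 and limma-voom, and between 0 and 6 with 1 library left out, in fits without a tissue term (0 without ob/ob jejunum and 0 without ob/ob colon, with 5 and 3 at an unadjusted p under 0.05, 2 without ob/+ jejunum and 6 without ob/+ colon). Of all 322 entries 33 fell in the main fit, against 56 with median-of-ratios factors, 158 by mappable reads and 67 with the authors' factors. At 100 CPM 5 members were fitted, and 41 of 149 entries fell. Without hairpin-named entries 51 of 309 fell, with no tissue term 44 of 322 and with no filter 2 of 972. With library totals, DESeq2 and limma-voom 28, 31 and 21 of 322 fell. In edgeR the prior degrees of freedom became infinite with median-of-ratios factors, mappable reads, the authors' factors, the 100 CPM filter and hairpin entries left out, and the cause of the extra calls was not tested. Tissue calls among the members stayed at 0 in every alternative. Over all entries, 2 were lower in colon with median-of-ratios factors, with the authors' factors and without hairpin-named entries. With mappable reads as library size the median over all entries shifted by -0.78 in jejunum and -0.86 in colon, and with library totals by 0.35 in colon.

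For the summed members, the log2 ratio of ob/ob over ob/+ in jejunum was -1.04 by mappable reads, -0.34 with the authors' factors and -0.88 without miR-541-5p. In colon it was -0.24 with library totals, -0.52 with median-of-ratios factors, -1.54 scaled to mappable reads and -0.82 without miR-541-5p. For colon over jejunum in ob/ob (-0.15) it turned to 0.14 with library totals and was -0.021 with the authors' factors and -0.012 without miR-541-5p. In ob/+ (0.24) it was 0.43 by mappable reads, 0.17 with the authors' factors, and turned to -0.069 without miR-541-5p. The median member ratio of colon over jejunum in ob/ob turned to 0.13 with library totals, 0 with no filter and 0.039 at 100 CPM, and in ob/+ to 0.15 by mappable reads, 0.0046 with no filter and 0.14 at 100 CPM. The genotype medians kept their sign in all alternatives run. miR-541-5p (-0.21) was at 0.0016 with library totals, -1.09 by mappable reads, where it passed (adjusted p = 0.000262), and between -0.32 and 0.0024 with a library left out, and miR-377-3p (0.04) at -0.82 scaled to mappable reads and between -0.26 and 0.63 with a library left out. With 100 counts per hairpin, arm shares were left for 2 of 6 hairpins. Summing miR-379-3p and miR-411-3p, and the ratios of miR-541-5p under other scalings, were added after seeing the data. No paired analysis by replicate number was possible because each combination of tissue and genotype has 1 library.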
